A study of Homo sapiens with 9 samples.

Results

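IL6, LIF, IL11, IL1A and IL1B encode secreted inflammatory cytokines. Binding of p65, the RELA subunit of NF-κB, and of TEAD near these 5 genes was profiled by chromatin immunoprecipitation sequencing (ChIP-seq). Peaks were chosen by position, not by height: every called peak whose summit lay within 50 kb of the start of one of the genes in hg19 was included. This gave 90 of the 60345 peaks in 5 lists, namely 21 control, 9 siTEAD4-labelled, 22 vehicle, 9 XMU-MP-1 and 29 TEAD peaks. The starts of IL1A and IL1B are 51386 bp apart, so 7 peaks lay near both, and these were counted once. Peaks of any list that shared at least 1 bp were joined, which gave 37 sites.

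The cells were 786-O, a long-established human line from a clear cell kidney carcinoma, so a single line stands for the tumour type. The p65 groups were control cells with no treatment in their labels, cells labelled siTEAD4 in the title and siTEAD under treatment (an siRNA against TEAD), cells given vehicle, and cells given XMU-MP-1, which blocks MST1 and MST2, the kinases at the top of the Hippo pathway. TEAD was profiled in XMU-MP-1 cells only. Dose, time, siRNA sequence and the TEAD proteins seen by the antibody are not in the labels. Each condition is a single library, so differences below have no replicate check and carry no p-value. Peak lists hold no expression values, so neither the knockdown nor the identity of the line was checked here.

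As background, p65 enters the nucleus when inflammatory signalling releases it from its inhibitors, and it binds κB sites in promoters and enhancers of cytokine genes. IL-6, LIF and IL-11 belong to 1 cytokine family, which signals through the shared receptor gp130 to JAK kinases and STAT3. IL-1α and IL-1β bind the IL-1 receptor, which itself activates NF-κB. TEAD proteins are the DNA-binding partners of the coactivators YAP and TAZ, and many TEAD sites lie in distal enhancers beside AP-1 sites.

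The RefSeq promoters of IL6 and IL11 are shown because p65 and TEAD peaks were called across the starts of these 2 genes and of no other member. The sequences are the 250 bases before the RefSeq start in GRCh38.p14, from chr7:22726950-22727199 on the plus strand for IL6 and chr19:55370464-55370713 on the minus strand for IL11. Capitals mark matches to the NF-κB consensus, to the TEAD motif GGAATG or to the AP-1 motif TGANTCA, searched on both strands.
IL6: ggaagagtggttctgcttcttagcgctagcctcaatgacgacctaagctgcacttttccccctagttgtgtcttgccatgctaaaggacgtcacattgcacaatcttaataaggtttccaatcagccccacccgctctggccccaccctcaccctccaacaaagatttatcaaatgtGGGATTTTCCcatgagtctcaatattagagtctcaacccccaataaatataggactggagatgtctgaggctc
IL11: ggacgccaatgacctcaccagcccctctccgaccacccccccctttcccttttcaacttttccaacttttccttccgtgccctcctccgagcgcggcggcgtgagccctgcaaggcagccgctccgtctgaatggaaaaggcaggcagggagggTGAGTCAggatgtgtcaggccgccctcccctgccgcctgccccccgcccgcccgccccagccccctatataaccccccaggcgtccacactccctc

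The IL6 promoter held 1 NF-κB consensus match, GGGATTTTCC, from 73 to 64 bases before the start, and no TEAD or AP-1 match. The IL11 promoter held 1 AP-1 match, TGAGTCA, from 96 to 90 bases before the start, and neither of the other motifs. IL1A has 2 promoters in the table, with 1 and 2 AP-1 matches and none of the other motifs, and the IL1B promoter matched none of the 3. Among 35093 RefSeq promoters of this length, 12.3% held an NF-κB consensus match, 11.9% a TEAD match and 6.57% an AP-1 match. No 2 matches overlapped in these windows. The matches describe letters and were not aligned with the peaks, whose coordinates are in hg19. LIF is not in the table.

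The first question was which of the p65 peaks near these genes were also called after treatment. Kept means that a peak shares 1 bp or more with any peak called under treatment, and lost means that it shares none. Of the 21 control peaks, 8 were kept in the list labelled siTEAD4, where 11.2% of all control peaks were kept. Of the 22 vehicle peaks, 9 were kept under XMU-MP-1, where 8.77% of all vehicle peaks were kept. LIF, which encodes leukaemia inhibitory factor, supplied nearly all of them: 7 of its 13 control peaks (53.8%, 95% Wilson interval 29.1 to 76.8) and 8 of its 13 vehicle peaks (61.5%, 35.5 to 82.3) were kept. IL6, IL11, IL1A and IL1B together kept 1 of 8 control and 1 of 9 vehicle peaks, and both were the same site between IL1A and IL1B.

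The LIF counts were also set beside peaks of similar fold, with peak length and TEAD overlap not matched. If each LIF peak had the share kept in its decile of fold (the authors' enrichment at the summit, relative to the local background that was used for that list, whose source library is not known here), 1.36 of the 13 control peaks and 1.48 of the 13 vehicle peaks would be kept. For the other 4 genes these numbers were 0.576 and 0.709. The p65 peaks of the treated lists lay at TEAD peaks, which were mapped in XMU-MP-1 cells alone: all 9 siTEAD4-labelled and all 9 XMU-MP-1 peaks near the 5 genes had a TEAD peak, where 71.6% and 75.2% of the whole lists did. At LIF a TEAD peak lay at 9 of 13 control and 10 of 13 vehicle peaks, beside 47.4% and 45.6% of all peaks. The part of TEAD in the kept peaks was not tested, and the peaks of 1 window share their region.

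**Figure D1:**
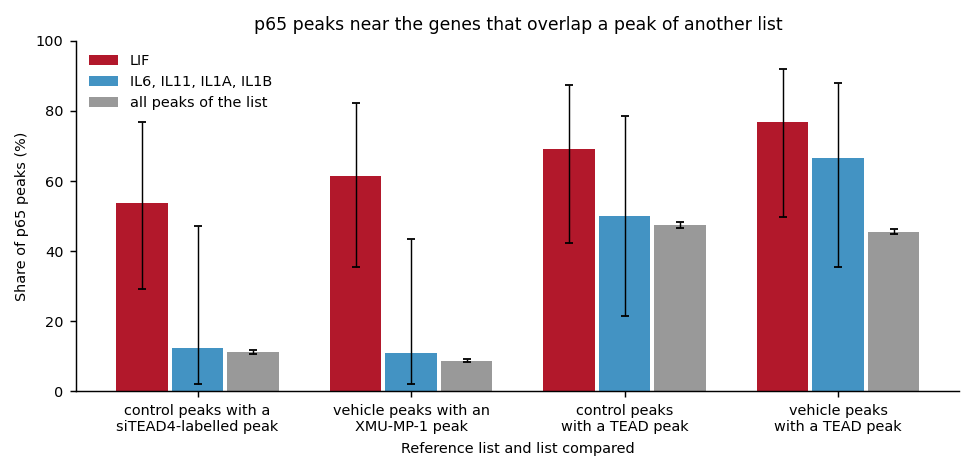
Share of p65 peaks (y axis, %) that overlapped a peak of another list, for LIF, for the other 4 genes together and for all peaks of the reference list; bars start at 0 and error bars are 95% Wilson intervals, which cover the counting of peaks only. LIF kept 53.8% and 61.5% of its peaks in the treated lists, against 11.2% and 8.77% of all peaks, while the other 4 genes kept 12.5% and 11.1%.

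Control and vehicle cells, the 2 p65 references, largely held the same sites near these genes, much as they did over the whole lists. Of the 21 control peaks, 18 had a vehicle peak, beside 79.5% of all control peaks. Of the 22 vehicle peaks, 18 had a control peak, beside 68.5% of all vehicle peaks. For LIF it was 12 of 13 both ways. The treated lists gave much the same counts against the other reference: 9 of the 22 vehicle peaks had a siTEAD4-labelled peak, beside 9.77% of all, and 9 of the 21 control peaks had an XMU-MP-1 peak, beside 10.2%. The 3 control peaks without a vehicle peak had folds of 4.14 (24.2 kb upstream of LIF), 4.29 (28.7 kb upstream of IL6) and 4.25 (39.0 kb upstream of IL1A). All 3 were below the control median of 5.98. The 4 vehicle peaks without a control peak had folds of 4.62 to 6.96. Only the highest of these, at the IL6 start, was above the vehicle median of 5.87.

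LIF is a cytokine that keeps mouse embryonic stem cells undifferentiated and acts on many tissues through its own receptor and gp130. Its surroundings were among the densest in the series. Within 50 kb of its start lay 13 control, 13 vehicle, 7 siTEAD4-labelled, 8 XMU-MP-1 and 15 TEAD peaks at 19 sites. When the genome was cut into 100 kb bins and the 13570 bins with any peak were counted, the mean was 1.14 control, 1.32 vehicle, 0.134 siTEAD4-labelled, 0.122 XMU-MP-1 and 1.73 TEAD peaks per bin. At least as many peaks as around LIF were found in 6 bins for control, 8 for vehicle and 4 for TEAD. In each treated list this was so in 3 bins, of which 1 was the bin with LIF, chr22:30600001-30700000. The windows around IL6, IL11, IL1A and IL1B held 0 to 5 peaks per list.

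**Figure D2:**
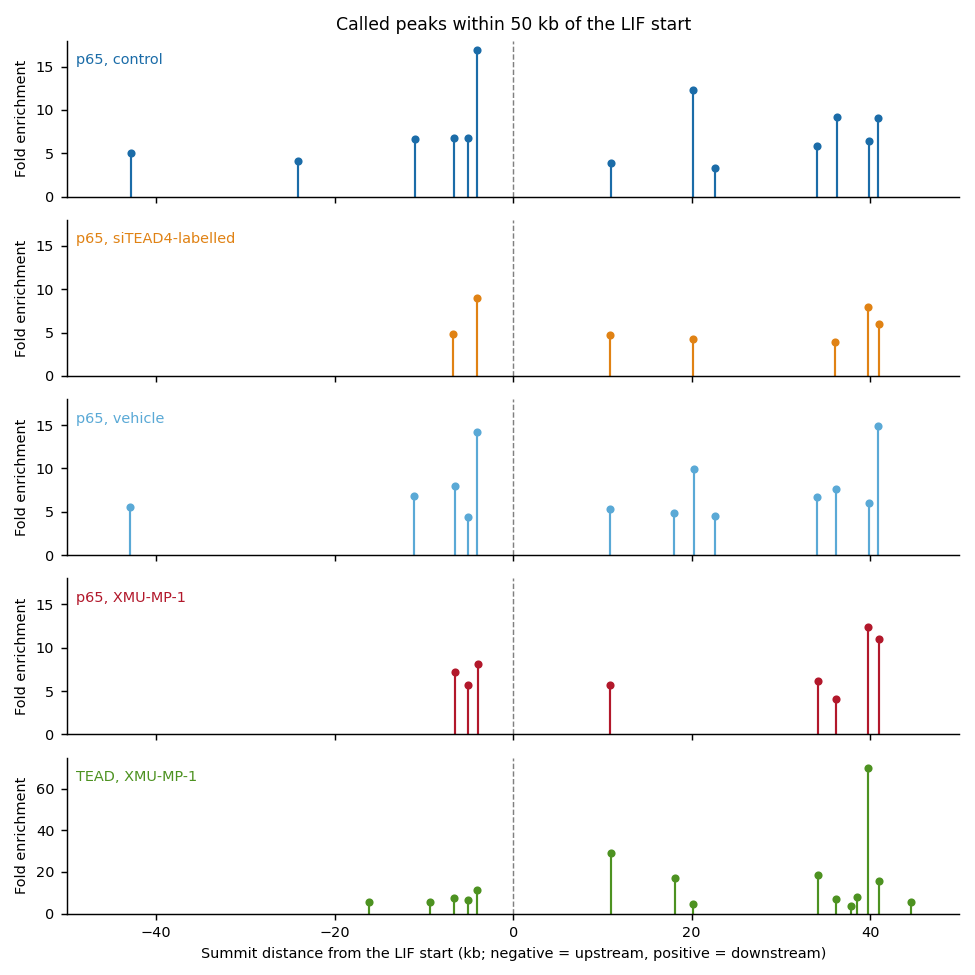
Called peaks within 50 kb of the LIF start in the 5 lists; the x axis is the distance of the summit from the start in kb along the direction of transcription, the y axis the fold over the local background used for that list, with a longer axis for TEAD, and the dashed line is the start. No peak lies between the one 4.0 kb upstream and the one 10.9 kb downstream, and the highest TEAD peak, 39.8 kb downstream, has a fold of 70.0.

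Upstream of LIF the highest p65 site lay 4.0 kb from the start, at chr22:30646547-30647313. Its p65 fold was 17.0 in control, 14.2 in vehicle, 9.001 with the siTEAD4 label and 8.12 with XMU-MP-1, beside a TEAD fold of 11.6. It was the highest LIF peak of the control and siTEAD4-labelled lists. A fold depends on the local background used for its list, and these differed at this site: the background was 8.0 in the XMU-MP-1 and 3.0 in the control list. The site 5.1 kb upstream (control 6.79, vehicle 4.45, XMU-MP-1 5.74, TEAD 6.55) had no siTEAD4-labelled peak. The site 6.6 kb upstream was broad, with peaks of 1392 bp in control and 914 bp in vehicle. It was called in all 5 lists, with folds of 6.72 in control, 8.02 in vehicle, 4.81 in siTEAD4-labelled, 7.16 in XMU-MP-1 and 7.64 in TEAD.

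Downstream of LIF, past the end of the gene, which is 6307 bp long in RefSeq, sites called in all 5 lists lay 10.9, 36.2, 39.8 and 40.9 kb from the start. The next protein-coding gene on that side is HORMAD2, and on the upstream side it is OSM, which encodes oncostatin M, another ligand of the IL-6 family. At chr22:30602735-30603557, 39.8 kb downstream, the TEAD fold of 70.0 was the 5th highest of the 23460 TEAD peaks. The p65 fold there was 6.41 in control and 5.99 in vehicle, near the middle of those lists, and 7.95 with the siTEAD4 label and 12.4 with XMU-MP-1. The XMU-MP-1 value put it in the top 6.55% of that list. At its neighbour 40.9 kb downstream, at chr22:30601144-30602185, the p65 folds were 9.12 in control, 14.9 in vehicle, 6.04 in siTEAD4-labelled and 11.0 in XMU-MP-1, with a TEAD fold of 15.5.

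Because folds cannot be compared between lists, the 6 LIF sites called in all 5 lists were ordered within each list. Sites missing from a treated list, such as the one 20.2 kb downstream, are therefore not in this order. The site 39.8 kb downstream, the highest of the 6 for TEAD, was the 5th of 6 by p65 fold in both control and vehicle. It was the 2nd in the siTEAD4-labelled and the 1st in the XMU-MP-1 list. The local background enters this order. With the 1st percentile of the background of each list in its place, the site was the 5th in control, the 6th in vehicle and the 3rd in both treated lists, and the site 4.0 kb upstream was the 1st in all 4 p65 lists. Among these 6, the site 39.8 kb downstream thus stood higher in both treated lists by either measure, in 1 library each. The opposite holds for the site 36.2 kb downstream, which was the 2nd in control and the 4th in vehicle and the last of the 6 in both treated lists, with folds of 9.23, 7.64, 3.86 and 4.12 in the order control, vehicle, siTEAD4-labelled and XMU-MP-1. With the floor it was the 4th in both references and again the last in both treated lists. Its TEAD fold, 7.15, was the lowest of the 6. The site 6.6 kb upstream had a similar TEAD fold, 7.64, and was the 3rd in vehicle and the 4th in the other 3 p65 lists. The site 40.9 kb downstream (TEAD 15.5) was the 3rd in control and siTEAD4-labelled, the 1st in vehicle and the 2nd in XMU-MP-1. By fold, the site 4.0 kb upstream (TEAD 11.6) was the 1st, 1st, 2nd and 3rd in the same order of lists. A relation of these places to TEAD fold was not tested. The site 10.9 kb downstream, with the 2nd highest TEAD fold, hardly moved: it was the last of the 6 in both references and the 5th in both treated lists, and with the floor the 6th in control and the 5th in the other 3.

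**Figure D3:**
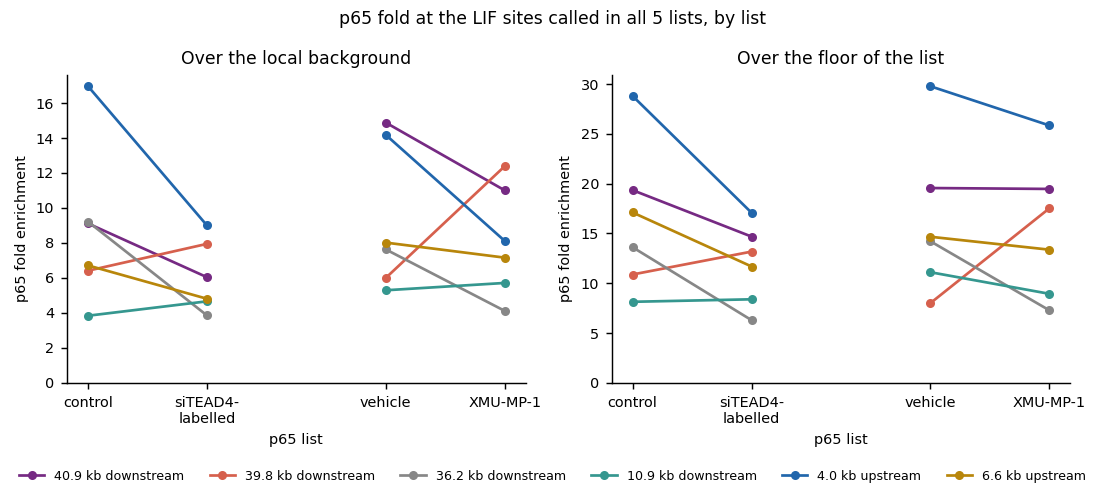
p65 fold at the 6 LIF sites called in all 5 lists (y axis) by p65 list (x axis), over the local background on the left and over the floor of the list on the right; points are single libraries and lines join the lists of 1 pair. Heights are relative to the background used for each list, so the order within a list is what can be read: the site 39.8 kb downstream is the 5th in control and vehicle and the 1st in XMU-MP-1 on the left.

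The LIF peaks that were kept had the higher p65 folds on the whole. The median fold of the control peaks was 9.12 for those kept and 5.42 for those lost in the siTEAD4-labelled list, and the 4 highest were all kept. For vehicle peaks under XMU-MP-1 the medians were 7.16 and 5.56. There were exceptions. The site 20.2 kb downstream had p65 folds of 12.3 in control and 9.90 in vehicle, and a TEAD fold of 4.61. It was kept in the siTEAD4-labelled list, with a fold of 4.225, and lost from the XMU-MP-1 list, where it was the highest vehicle fold lost around LIF. The site 10.9 kb downstream had p65 folds of only 3.84 and 5.29 in the same references and a TEAD fold of 29.4, in the top 1.71% of that list, and it was kept in both, with folds of 4.66 and 5.71. Of the 12 LIF sites in both references, 9 had a TEAD peak, and each of these was called in at least 1 treated list. The 3 without a TEAD peak, 22.6 kb downstream and 11.1 and 42.9 kb upstream, with control folds of 3.30, 6.67 and 4.99, were called in neither. Counted by single lists, 7 of the 9 LIF control peaks with TEAD were kept in the siTEAD4-labelled list. XMU-MP-1 kept 8 of the 10 LIF vehicle peaks with TEAD. Over the whole control list, the siTEAD4-labelled list kept 17.3% of peaks that had TEAD and 5.79% of peaks that had none. XMU-MP-1 kept 14.9% and 3.61% of the vehicle peaks in the same way. None of the 4 control and 3 vehicle LIF peaks without TEAD was kept in the matching list, which is near the whole-list shares. The whole-list shares compare with the single-list counts only. No share was computed over all sites in both references with a call in either treated list. At the other 4 genes 3 of the 6 sites in both references had a TEAD peak, and 2 of those 3 were in no treated list.

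Gaps between p65 and TEAD summits were measured only where the peaks overlapped, so the lengths of the peaks limit them. No gap over all overlapping peaks was computed, so closeness at LIF has no whole-list value beside it. In XMU-MP-1 cells, where both proteins were profiled, the summits were 14 bp apart 40.9 kb downstream, 29 bp apart 36.2 kb downstream and 39 bp apart 6.6 kb upstream. The other gaps of the 8 XMU-MP-1 peaks were 56, 69, 77, 94 and 142 bp, the widest 10.9 kb downstream. Read from the TEAD side, 10 of the 15 LIF peaks had a vehicle p65 peak, 9 a control and 8 an XMU-MP-1 peak, beside 34.5%, 30.9% and 5.26% of all TEAD peaks. For the other 4 genes these counts were 6, 4 and 1 of 14. TEAD without any p65 peak was called at 5 LIF sites, with folds of 3.82 to 7.83. The share of all TEAD peaks without any p65 peak was not computed, so this count has no whole-list value beside it. The site 18.1 kb downstream had a TEAD fold of 17.1 and a p65 peak in vehicle only, with a fold of 4.87.

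IL6 encodes interleukin-6, a central inducer of the acute phase response. Its start carried a p65 peak in vehicle (fold 6.96, 25 fragments at the summit) and in the siTEAD4-labelled list (fold 4.98, 28 fragments), with summits 2 bp apart and 13 to 15 bp past the start. Control and XMU-MP-1 had no peak there. It is therefore the only site of the 37 called in the treated list and not in the reference of 1 pair, and in the reference and not in the treated list of the other. In the whole siTEAD4-labelled list, 96.3% of peaks had a control peak. The peak identifiers of that list carry the condition name p65_Vert, so its treatment rests on the sample label. A missing call is not a measured 0: the fewest fragments at any called summit were 13 in control and 14 in XMU-MP-1. TEAD was called across the same start with a fold of 10.5, its summit 156 bp upstream. The hg19 start used for these distances and the GRCh38 start of the printed promoter were not aligned.

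The highest p65 fold near IL6 was 32.1 kb upstream, at chr7:22734474-22734949, with 9.28 in control and 8.05 in vehicle and no TEAD or treated p65 peak. Its local background was 6.0 in control and 7.44 in vehicle, where the floors of these lists were 1.36 and 1.25. In control, only the sites between IL1A and IL1B and 4.0 kb upstream of LIF held more fragments than its 109; in vehicle it held 67. The highest TEAD fold near IL6, 13.6, was 4.3 kb downstream of the start, at a distance shorter than the gene, which is 4799 bp long in RefSeq. The p65 peaks joined to it had folds of 4.66 in control and 3.63 in vehicle, with summits 331 and 415 bp from that of TEAD. Neither was kept, where 11.2% of all control and 8.77% of all vehicle peaks were. TEAD was called without p65 at 3 further IL6 sites, 8.9 kb upstream and 1.4 and 5.6 kb downstream, with folds of 7.40, 4.64 and 4.37. For this count, too, no whole-list share was computed. None of the 5 IL6 TEAD peaks had a p65 peak in the same XMU-MP-1 cells, and only 5.26% of all TEAD peaks had one, so this count is near that of the whole list.

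IL11 encodes interleukin-11, which acts on blood progenitors, epithelium and fibroblasts. Neither its 1 control peak nor its 3 vehicle peaks were kept, where 11.2% and 8.77% of all such peaks were, so this is near the whole lists. At its start vehicle p65 had a fold of 4.62 and TEAD one of 3.74, with summits 13 bp apart, but these were weak calls: 11 and 7 fragments, and −log10 q of 3.92 and 2.01. The site 2.4 kb upstream was in both references, with folds of 6.01 in control and 4.80 in vehicle, and had no TEAD peak. At 4.1 kb upstream the TEAD fold was 10.8 and p65 was called in vehicle only, with a fold of 4.89. TEAD alone was called 1.1 kb downstream (5.29) and 15.5 kb upstream (4.37).

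IL1A and IL1B encode interleukin-1α and interleukin-1β, which drive fever and local inflammation, and they lie next to each other in the same direction. Neither start carried a peak in any list: the nearest summits were 26.7 kb from the IL1A start and 12.3 kb from the IL1B start. Between the genes, 26.7 kb upstream of IL1A and 24.7 kb downstream of the IL1B start, lay 1 site called in all 5 lists, at chr2:113569418-113569990. Its p65 fold was 10.2 in control, 26.2 in vehicle, 8.35 in siTEAD4-labelled and 12.0 in XMU-MP-1, and its TEAD fold was 11.0. The vehicle value was the 132nd highest of 17958 peaks and the highest p65 fold near the 5 genes. The local background was 6.0 in control and 2.43 in vehicle. The summits held 120 and 89 fragments before scaling. The control pileup carried a scaling of 0.587 and no read totals are given, so the heights of the 2 summits were not compared. The 5 summits lay within 18 bp of each other, and those of p65 and TEAD in XMU-MP-1 cells 5 bp apart.

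The other IL1A and IL1B sites had p65 folds of at most 6.05 and none was kept. Over the whole lists 11.2% of control and 8.77% of vehicle peaks were kept, so this is near the whole lists. The site 48.2 kb downstream of the IL1A start had folds of 5.13 in control, 6.05 in vehicle and 5.15 for TEAD, and CKAP2L is the next gene on that side. The site 12.3 kb downstream of the IL1B start was called in control, with a fold of 4.25, and for TEAD, with 8.51. The site 43.4 kb upstream of IL1B, on the side of IL37, a further gene of the IL-1 family, had p65 folds of 5.35 in control and 5.44 in vehicle and no TEAD peak. TEAD alone was called on both sides of it, 41.0 and 44.6 kb upstream.

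**Figure D4:**
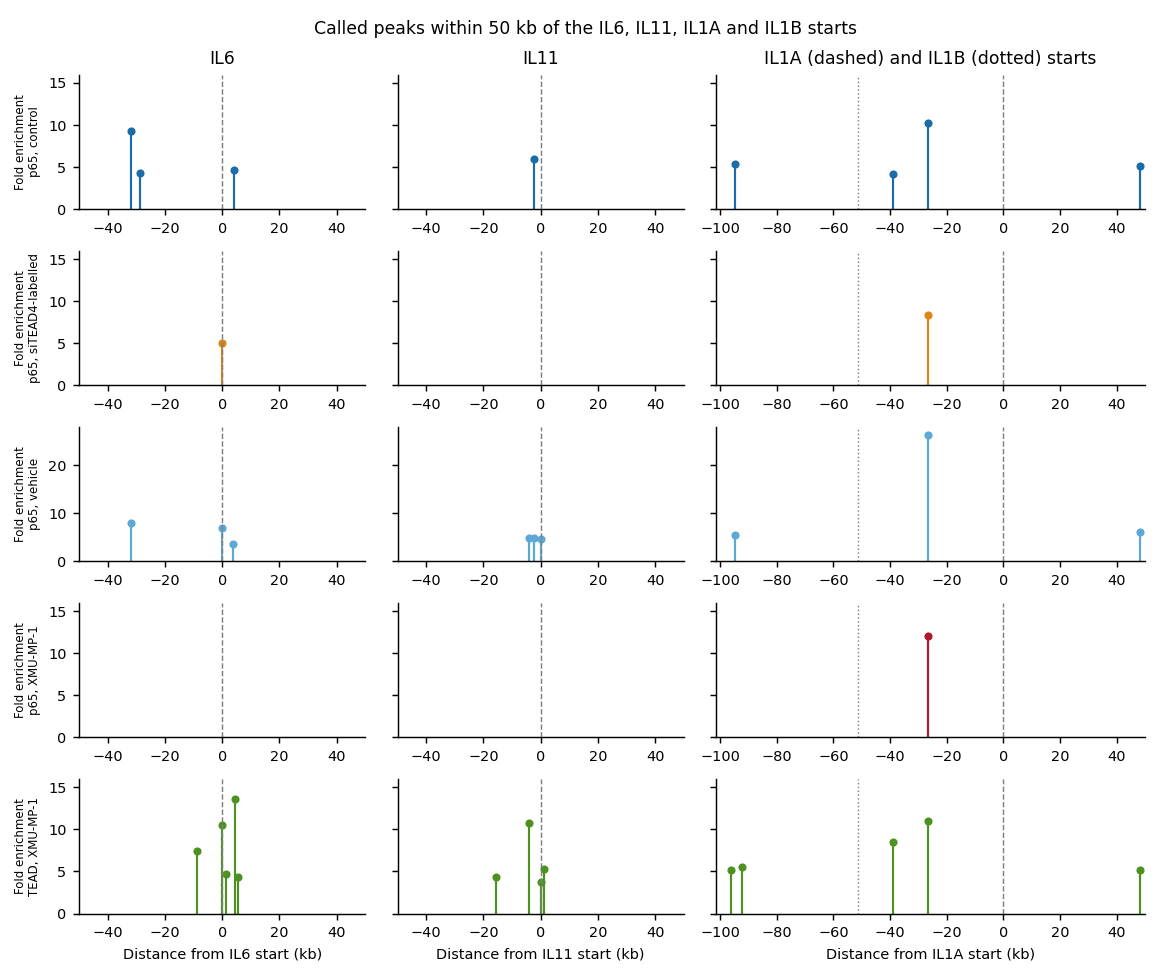
Called peaks within 50 kb of the starts of IL6, IL11 and the IL1A and IL1B pair (columns) in the 5 lists (rows); the x axis is the distance from the start (for the pair, from that of IL1A) in kb along the direction of transcription, with negative values upstream, and the y axis the fold over the local background used for that list, with a longer axis for vehicle. The site between IL1A and IL1B is in all 5 rows, with 26.2 in vehicle, while the siTEAD4-labelled and XMU-MP-1 rows hold no other peak except the one at the IL6 start.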

How the data were processed

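ChIP-seq of 5 immunoprecipitates from 786-O cells was used; the 4 input libraries were not analysed here. The submitters' processing notes name fastp, MACS2 and Bowtie2 2.4.5 as tools and hg19 as the build; version, settings and input pairing of MACS2: not given in the sources used here. The authors deposited 1 narrowPeak list per library, with a fold (ratio of summit to local background), a −log10 p-value, a −log10 q-value and a score per peak; the score was not used. Gene starts are hg19 positions, and members, lists and alternatives were chosen with earlier results of these data known. For each gene, the rule for naming took the site nearest the start, the site with the highest reference p65 fold and every site in a treated p65 list; other sites are given more briefly.

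Fragments and local background at a summit were solved from the fold and the p-value, with the fold taken as the ratio of both after adding 1 to each, and p as the Poisson tail above the pileup. Pileups were whole numbers, or multiples of 0.587 (control) and 0.783 (XMU-MP-1), to within 0.02 fragments for at least 99.64% of the peaks of a list. Fragments are given before that scaling and the background on the scale that gives the fold; which library supplied the background is not known here. The deciles of fold, the order of the LIF sites and the floor were added after seeing the data. The floor of a list is the 1st percentile of its background. The lists hold 15465 control, 1813 siTEAD4-labelled, 17958 vehicle, 1649 XMU-MP-1 and 23460 TEAD peaks and give no read totals. Wilson intervals (95%) cover counting only and treat peaks as independent. Promoters were from RefSeq, with 4 of the 5 genes matched. Positions of other pathway genes in hg19 were not used here, so they were not counted. Python 3.11.15, numpy 2.4.6, pandas 2.3.3 and scipy 1.17.1 were used, and the overlap and fragment steps were tested on simulated data.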

Additional observations from a re-analysis of the deposited data

Results flagged for a closer look

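The p65 peak at the IL6 start was present in the siTEAD4-labelled list (fold 4.98) and absent from control, but present in vehicle (fold 6.96) and absent from XMU-MP-1. The 2 pairs thus differed in direction at this site, with 1 library on each side. The difference was not tested.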

How the results depend on the processing

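With 1 library per condition, the results rest on which peaks were called, and a site without a call may hold fragments below the threshold. Of 71 recomputed values, 39 stayed within 1.5 times the reported count (or in the same place) and 32 did not; none changed direction, because a count of peaks has none. Alternatives that leave out LIF, exchange the reference lists or use the floor of a list were chosen after seeing the data. Stricter limits and shorter distances leave fewer peaks by construction. The limits on q and fold were applied to all lists, and whole-list shares at these limits were not computed. Counts at these limits therefore have no whole-list value beside them, and the shares given above do not apply to them.

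At a −log10 q of at least 10 the counts were 5 of 8 control peaks kept in the siTEAD4-labelled list, 4 of 10 vehicle peaks kept in the XMU-MP-1 list, 7 of 8 control peaks with a vehicle peak, 7 of 10 vehicle peaks and 5 of 5 XMU-MP-1 peaks at a TEAD peak; the siTEAD4-labelled list then held 5 and the TEAD list 16 peaks near the genes. At a fold of at least 5 there were 4 of 14 kept control peaks, 10 of 15 vehicle peaks with TEAD and 4 siTEAD4-labelled peaks. Within 25 kb the same 5 counts were 5 of 12, 5 of 14, 10 of 12, 11 of 14 and 5 of 5, with 19 TEAD peaks. Within 100 kb the lists held 32 control and 45 TEAD peaks, and 25 of 33 vehicle peaks had TEAD. Without LIF the counts were 1 of 8, 1 of 9, 6 of 8, 6 of 9 and 1 of 1.

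Read against the other reference, 9 of 22 vehicle peaks were kept in the siTEAD4-labelled list and 9 of 21 control peaks in the XMU-MP-1 list. Over the floor of each list, the place of the site 39.8 kb downstream of LIF moved to 3 in the siTEAD4-labelled, 6 in the vehicle and 3 in the XMU-MP-1 list. No paired analysis was possible because there is only 1 immunoprecipitate of each kind per condition.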
